A study of Mus musculus with 12 samples.

Results

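The 2'-5'-oligoadenylate synthetase (OAS) family was followed through 8 genes, Oas1a, Oas1b, Oas1c, Oas1g, Oas2, Oas3, Oasl1 and Oasl2, chosen by name from the 24421 gene symbols of the table. All 8 passed the minimum level for testing, which left 10899 genes, and all were measured in the 12 labelled libraries. Those libraries were RNA sequencing of RAW 264.7, a mouse macrophage line labelled as of BALB/c strain, in wild-type (WT) cells and in cells with both copies of Parp14 knocked out (Parp14 -/-, KO). WT cells were untreated, or had 2 h of lipopolysaccharide (LPS, the bacterial cell wall component sensed through TLR4), a Jak inhibitor, or LPS together with the inhibitor. KO cells were untreated or had 2 h of LPS. Each of the 6 groups had 2 libraries. Among the libraries analysed here no KO library had the inhibitor. The sources used here do not give the inhibitor's name or dose, nor how many KO clones there were.

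OAS enzymes bind double-stranded RNA and then join ATP into short 2'-5'-linked oligoadenylates (2-5A). These are second messengers that set off the cutting of viral and cellular RNA. The genes are known as interferon-stimulated genes: in macrophages LPS induces interferon beta, which acts back through its receptor and the Jak kinases on promoters with the interferon-stimulated response element (ISRE). Oas1a, Oas1g, Oas2, Oas3 and Oasl2 are active synthetases, and Oas3 is the longest, built of repeated synthetase units. Oasl1 has no synthetase activity and is known to hold back translation of Irf7 mRNA. Oas1b is known for resistance to flaviviruses, and its reading frame is cut short in many laboratory strains. Oas1c is a further copy of Oas1.

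The members lie in 2 clusters on chromosome 5 (GRCm38, GENCODE M21). Oasl2 (114896936 to 114912234) and Oasl1 (114923240 to 114937915) are neighbours on the plus strand. The other cluster holds Oas2 (120730333 to 120749853), Oas3 (120753098 to 120777661), Oas1c (120800194 to 120812514), Oas1g (120876142 to 120887613) and Oas1a (120896256 to 120907521), all on the minus strand. Oas1b (120812635 to 120824163, plus strand), annotated as a polymorphic pseudogene, starts 120 bases from the start of Oas1c and is read the other way. Oas1a and Oas1g are close copies: their coding sequences are 96.7% identical, and 57.57% of the 50-base stretches of the Oas1a transcript occur in other genes, mostly in Oas1g. For Oas1g that share was 54.72%, for Oas1c 16.28% and for Oas1b 3.42%. It was 0.79% for Oas3 and 0% for Oas2, Oasl1 and Oasl2. The authors' counts kept alignments that were not unique apart from the genes. Reads that fit Oas1a and Oas1g alike may therefore be missing from both. How many were lost is not known, so their values are uncertain and may be too low. Exons of Oas1c overlap the antisense gene Gm43069 by 227 bases and those of Oasl1 overlap Gm13822 by 38 bases. The sources used here do not say whether the counting used strand.

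The bases before the starts of 5 members are shown, as the place where interferon-activated factors would bind these genes. The sequences are RefSeq promoters on GRCm38.p6, each written on the gene's own strand and ending just before the transcript start. Capitals mark the ISRE core (GAAA, any 2 bases, GAAA), the GAS core TTCNNNGAA (a STAT dimer motif) and the NF-kB consensus, searched on both strands.
Oas1a (chr5:120907526-120907775, minus strand): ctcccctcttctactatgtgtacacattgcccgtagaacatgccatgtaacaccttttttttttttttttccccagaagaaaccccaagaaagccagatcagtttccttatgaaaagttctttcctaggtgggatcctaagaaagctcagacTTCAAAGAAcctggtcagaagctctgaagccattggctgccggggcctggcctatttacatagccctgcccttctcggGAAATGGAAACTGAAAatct
Oas1g (chr5:120887614-120887863, minus strand): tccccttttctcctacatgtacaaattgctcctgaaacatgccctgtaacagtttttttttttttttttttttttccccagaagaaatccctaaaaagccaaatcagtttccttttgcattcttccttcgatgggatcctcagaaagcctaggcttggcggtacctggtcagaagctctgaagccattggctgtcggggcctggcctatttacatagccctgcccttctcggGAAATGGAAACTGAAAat
Oas1c to Oas1b (chr5:120812515-120812634, minus strand): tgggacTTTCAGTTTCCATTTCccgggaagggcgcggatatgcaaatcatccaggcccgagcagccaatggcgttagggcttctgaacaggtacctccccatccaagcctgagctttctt
Oas3 (chr5:120777660-120777909, minus strand): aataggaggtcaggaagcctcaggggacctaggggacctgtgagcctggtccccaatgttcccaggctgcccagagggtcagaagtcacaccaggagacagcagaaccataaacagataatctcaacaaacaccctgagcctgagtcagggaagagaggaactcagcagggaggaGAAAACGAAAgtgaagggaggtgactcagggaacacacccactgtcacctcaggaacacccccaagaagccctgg
Oasl1 (chr5:114922990-114923239, plus strand): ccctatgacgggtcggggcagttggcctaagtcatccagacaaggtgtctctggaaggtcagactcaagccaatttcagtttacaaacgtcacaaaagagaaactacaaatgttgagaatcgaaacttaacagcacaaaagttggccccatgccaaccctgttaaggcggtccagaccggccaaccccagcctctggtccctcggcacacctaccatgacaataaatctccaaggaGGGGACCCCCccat

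Oas1a and Oas1g each held 2 overlapping ISRE cores, GAAATGGAAA and GAAACTGAAA, which together cover bases -20 to -5 and -18 to -3 from their starts. Oas1a also held a GAS core at -98 to -90. The 120 bases between Oas1c and Oas1b held 2 overlapping ISRE cores on the strand of Oas1b. These lie -22 to -7 from the start of Oas1b and -114 to -99 from the start of Oas1c. Oas3 held 1 ISRE core at -75 to -66. Oasl1 held no ISRE or GAS core in its 250 bases and 1 match to the NF-kB consensus on the other strand, at -14 to -5. Oasl2 held none of the motifs. Among 32851 promoters in the table, the same 250 bases held an ISRE core in 2.98%, a GAS core in 7.02% and the NF-kB consensus in 3.9%. A match is a match of letters: no file measured binding.

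The libraries held 35.9 to 45.7 M reads in genes, 58.9 to 64.1% of all counted alignments, and replicate libraries correlated with r of 0.995 to 0.997 over the tested genes. The 4 KO libraries lay apart from the 8 WT libraries in this share, at 58.9 to 59.9% against 61.5 to 64.1%, and in the share of alignments that were not unique, at 33.2 to 34.9% against 28.6 to 32.1%. Genotype and this difference cannot be told apart. Parp14 stood at 12.5% of the WT level in untreated KO cells and at 10.3% after LPS. All 10 macrophage markers were at 1 CPM or more in every library. The summed lymphocyte markers (8 genes, 5 of them at 0 everywhere) ranged from 0.2 to 0.821 CPM and the stromal, epithelial and endothelial markers (8 genes, 4 at 0) from 0.414 to 1.33 CPM. The neutrophil markers ranged from 0.175 to 0.747 CPM over the 4 of 5 genes in the table. In bulk RNA fewer responding cells and less RNA per cell cannot be told apart.

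Levels are given in CPM over the gene reads of each library, first for replicate 1 and then for replicate 2. For every member but Oas1c, replicate 2 was above replicate 1 in 6 of 6 groups, as it was for 19.6% of all tested genes. The ratio of replicate 2 to replicate 1 reached 1.57 for Oas2, 1.56 for Oas3 and 2.06 for Oasl2. The fit without a replicate block counts this difference as spread. A second fit took the replicate number as a block, and where it changed a call its p is given as the blocked adjusted p. Changes are differences of log2(CPM + 1) from limma with a standard error (SE). A gene was called when its p, adjusted by Benjamini-Hochberg over all tested genes, was under 0.05.

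**Figure D1:**
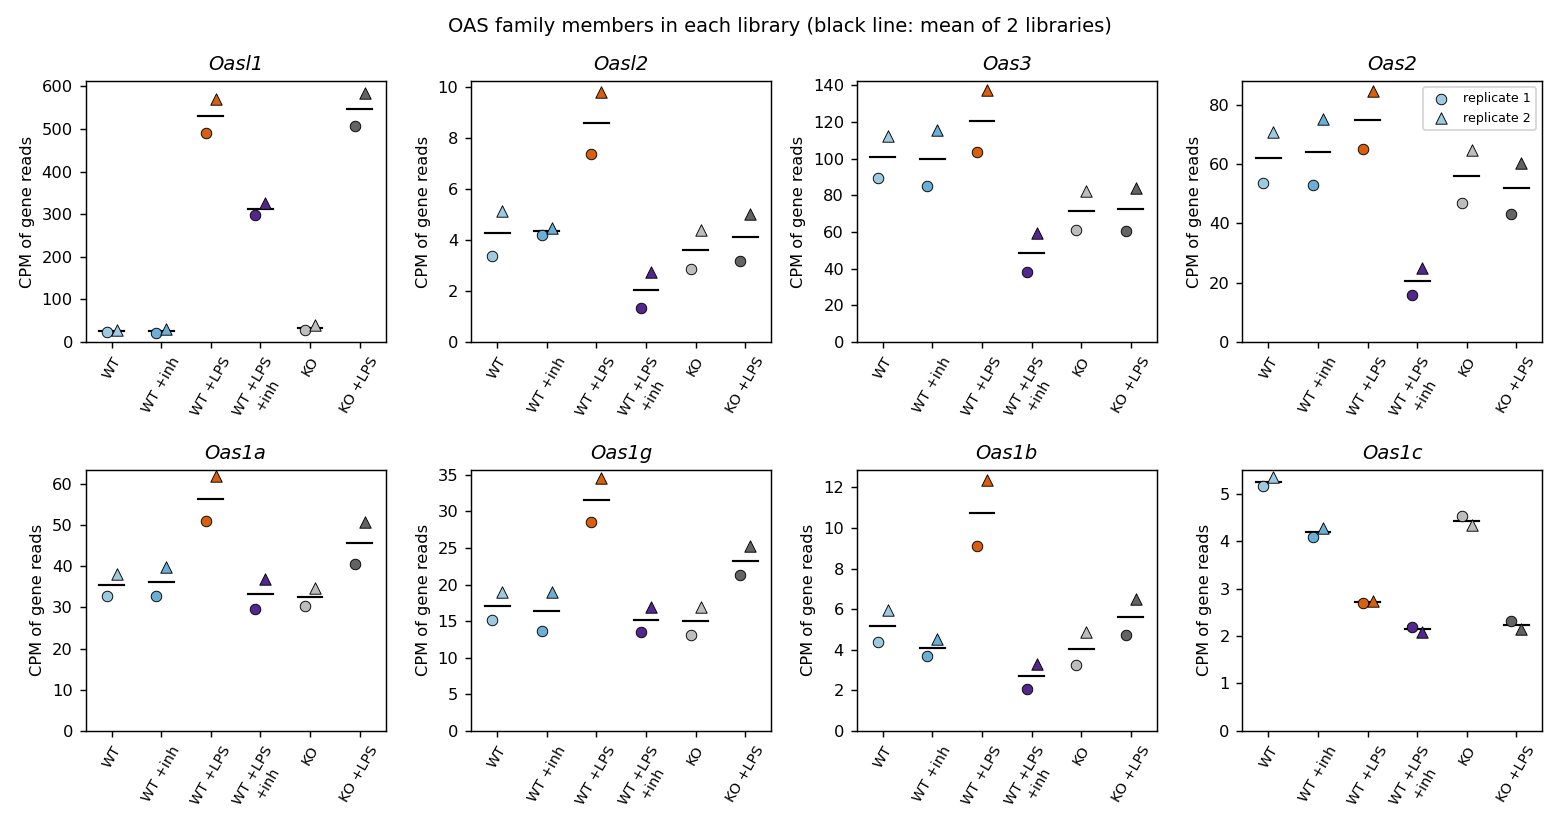
Level of each member in CPM of gene reads (vertical axes from 0, a scale of its own per panel) in the 6 groups; circles are replicate 1, triangles replicate 2 and black lines the mean of 2 libraries. Oasl1 stands far above its untreated level in every LPS group, while the other members that are high in WT with LPS are low in WT with LPS and the inhibitor (inh).

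In untreated WT cells the synthetase genes made up most of the family. Per kilobase of merged exons, Oas1a stood first at 18.8 CPM per kb, followed by Oas3 at 14.3 and Oas2 at 14.0 CPM per kb, whose ranges overlapped. Oasl1 followed at 9.95 CPM per kb and held 14.3% of the summed level. Oas1g stood at 7.29, Oas1b at 2.59, Oas1c at 2.19 and Oasl2 at 0.67 CPM per kb. The ranges of Oas1b and Oas1c overlapped and those of the other neighbours did not. With the longest transcript as the length, Oas3 came before Oas1a, and the other ranks were the same. Reads that fit Oas1a and Oas1g alike may be missing, so their ranks and all shares of the sum are uncertain.

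LPS for 2 h raised Oasl1 far above the other members in WT cells. Oasl1 went from 22.9 and 29.0 CPM to 491 and 571 CPM. The LPS libraries lay 20.5-fold above the untreated ones on average, which is 4.31 on the log2 scale (SE 0.20, adjusted p = 1.15e-07). The active synthetases Oas1a, Oas1g and Oasl2 rose far less. Oas1a went from 32.7 and 38.0 to 51.0 and 61.9 CPM, a change of 0.66 (SE 0.16, adjusted p = 0.00446). Its close copy Oas1g went from 15.2 and 19.0 to 28.6 and 34.6 CPM, a change of 0.85 (SE 0.19, adjusted p = 0.00294). Oasl2, at 3.40 and 5.15 CPM untreated, stood at 7.38 and 9.82 CPM with LPS, a change of 0.87 (SE 0.28, adjusted p = 0.0179). For none of these members did the untreated and LPS libraries overlap, but the share of all genes that lay apart with LPS was not counted. Oas1b rose from 4.36 and 5.97 to 9.11 and 12.4 CPM, a change of 0.93 (SE 0.24, adjusted p = 0.00627).

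Oas2 and Oas3, the larger synthetases, did not pass the test. Oas2 stood at 53.7 and 70.8 CPM untreated and at 65.1 and 84.6 CPM with LPS, a difference of 0.27 (95% interval -0.35 to 0.88, adjusted p = 0.412). Oas3 stood at 89.4 and 112 CPM untreated and at 104 and 137 CPM with LPS, a difference of 0.25 (95% interval -0.33 to 0.84, adjusted p = 0.416). Their untreated and LPS libraries overlapped, and each replicate number on its own gave a higher LPS value. With the block both were called, with blocked adjusted p of 0.000793 for Oas2 and 0.00124 for Oas3. Over the 11 alternatives of this comparison their adjusted p ran up to 0.879 and 0.901, with 2 of 11 under the threshold. Oas1c was the member that fell, from 5.17 and 5.35 to 2.69 and 2.73 CPM, a change of -0.75 (SE 0.079, adjusted p = 1.95e-05).

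LPS thus called 5 members higher and 1 lower, where 13.7% of all tested genes were called higher and 53.6% lower. The median of the members was 0.76 and that of all genes -0.30. With median of ratios scaling the median of all genes was -0.04, 26.5% were called higher and 32.4% lower, and the members again counted 5 and 1. With the block 7 were higher and 1 lower, against 18% and 62.8% of all genes. The calls of Oas1b and Oasl2 did not hold in every fit with 1 library left out. By replicate number their changes were alike, at 0.915 and 0.938 for Oas1b and 0.93 and 0.816 for Oasl2. Without replicate 1 of untreated WT their adjusted p were 0.0544 and 0.13, and without replicate 2 of WT with LPS 0.0541 and 0.113. Each of these members was called in 9 of 11 alternatives, with adjusted p from 1.82e-07 to 0.0544 for Oas1b and from 8.46e-06 to 0.13 for Oasl2. Oasl1, Oas1a, Oas1g and Oas1c were called in 11 of 11.

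**Figure D2:**
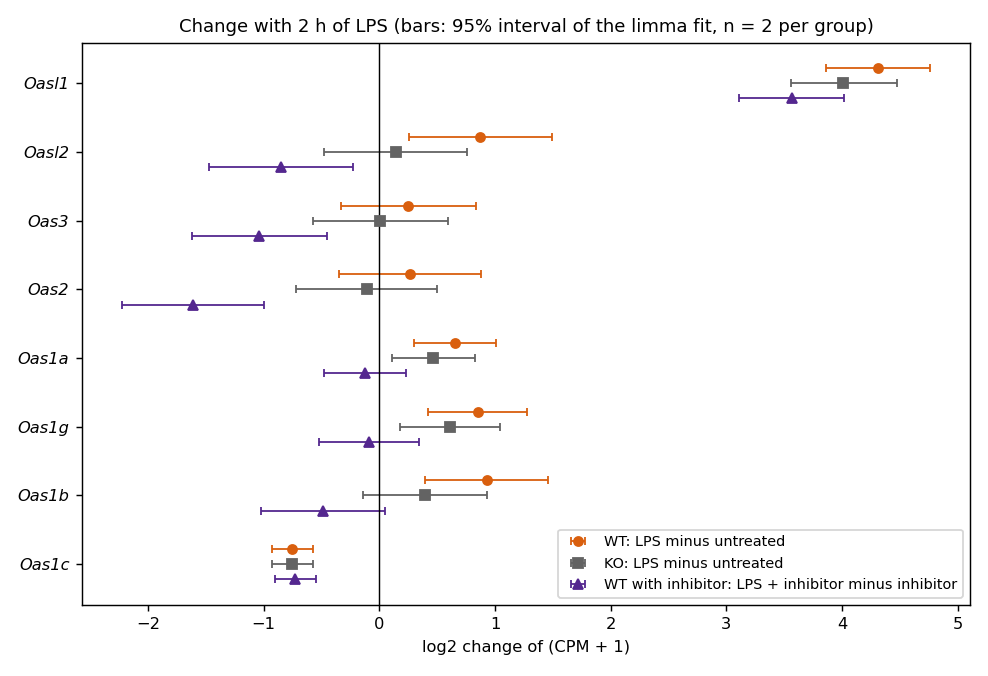
Change of each member with 2 h of LPS as log2 of (CPM + 1), in WT cells (circles), KO cells (squares) and WT cells with the inhibitor in both arms (triangles); bars are 95% intervals of the limma fit with 2 libraries per group. Oasl1 lies at 4.31, 4.01 and 3.57, Oas1c at -0.75, -0.75 and -0.73, and the triangles of the other members lie at or below 0.

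With the inhibitor present, Oasl1 was still called higher with LPS. With Jak kinases inhibited in both arms, LPS took Oasl1 from 21 and 30.7 to 299 and 325 CPM, which is 3.57 on the log2 scale (SE 0.20, adjusted p = 3.76e-07). This was the only member called higher. Oas2 went the other way, from 52.9 and 75.1 to 16.0 and 25.1 CPM, a change of -1.61 (SE 0.27, adjusted p = 0.000536). Oas3 fell from 84.9 and 115 to 38.2 and 59.4 CPM, by 1.04 on the log2 scale (SE 0.26, adjusted p = 0.00566). Both groups of libraries stood clear of each other for 1 member that was higher and 5 that were lower, Oas2 and Oas3 among them. The share of all genes lying apart in this comparison was not counted. Oasl2 fell from 4.20 and 4.49 to 1.34 and 2.77 CPM (-0.85, SE 0.28, adjusted p = 0.0215), and Oas1c from 4.10 and 4.29 to 2.19 and 2.09 CPM (-0.73, SE 0.079, adjusted p = 2.66e-05).

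Oas1a, at 32.7 and 39.9 CPM with the inhibitor alone and 29.7 and 37.0 CPM with both, differed by -0.12 (95% interval -0.48 to 0.23, adjusted p = 0.528). Oas1g, at 13.6 and 19.0 against 13.5 and 16.9 CPM, differed by -0.09 (95% interval -0.52 to 0.34, adjusted p = 0.7). With median of ratios scaling, and with edgeR and DESeq2, both differences were above 0 and not called. Oas1b, at 3.69 and 4.51 against 2.05 and 3.31 CPM, differed by -0.49 (95% interval -1.02 to 0.05, adjusted p = 0.0991). The block added Oas1a and Oas1b to those called lower, with blocked adjusted p of 0.0473 and 0.000138. Without the block 1 member was called higher and 4 lower, where 13.5% of all genes were called higher and 50.8% lower. With the block the counts were 1 and 6, against 18.4% and 59.7%. With median of ratios scaling the members counted 1 and 3 and all genes 26.5% and 32.4%: Oasl2 was no longer called, at an adjusted p of 0.071. Oasl2 was called in 5 of 11 alternatives (adjusted p 1.22e-05 to 0.174). It was lost without either library with the inhibitor alone (0.0571 and 0.0758) and without replicate 1 with both agents (0.174). Without that last library Oas3 was lost as well, at 0.0537, within a range from 7.1e-10. Oas1b was called without replicate 2 with both agents (0.0435).

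Set side by side after LPS, with and without the inhibitor, all 8 members were lower with it and none of the libraries overlapped, where 11.9% of all tested genes lay apart in this way. Oas2 was lowered to 27.4% of its level with LPS alone (-1.84, SE 0.27, adjusted p = 0.00882). Oas1b was lowered to 25% (-1.68, SE 0.24, adjusted p = 0.00667) and Oasl2 to 23.9% (-1.68, SE 0.28, adjusted p = 0.0167). Oas1g stood at 48.0% (-1.01, SE 0.19, adjusted p = 0.0385). These 4 of 8 members were called lower, against 1.04% of all tested genes. Oas3 stood at 40.5% (-1.31, SE 0.26, adjusted p = 0.052), Oas1a at 59.0% (-0.75, SE 0.16, adjusted p = 0.0751) and Oasl1 at 58.8% (-0.76, SE 0.20, adjusted p = 0.222). Oas1c stood at 78.9% (-0.24, SE 0.079, adjusted p = 0.435).

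With the block 7 of 8 members were called lower, against 2.41% of all genes, and Oas1c was not (blocked adjusted p = 0.14). The blocked adjusted p of Oas3, Oas1a and Oasl1 were 1.13e-09, 2.17e-07 and 2.47e-05. DESeq2 called the same 7 members, but the share of all genes that it called was not counted. The 4 calls without the block did not hold in every fit with 1 library left out. By replicate number the changes were -1.96 and -1.71 for Oas2 and -1.73 and -1.63 for Oas1b. They were -1.84 and -1.52 for Oasl2 and -1.03 and -0.995 for Oas1g. None of the 4 was called without replicate 2 of WT with LPS, where their adjusted p were 0.103 to 0.391. None was called without replicate 1 of WT with both agents, where they were 0.0831 to 0.382. Without replicate 1 of WT with LPS, Oas1g and Oasl2 were lost (0.112 and 0.0607), and without replicate 2 with both agents Oas1g was lost (0.0823) while Oas3 was called (0.0429). Over 11 alternatives Oas1b and Oas2 were called in 9, Oasl2 in 7, Oas1g in 6, Oas3 in 3, and Oas1a and Oasl1 in 2. The count for Oas3 leaves out CPM as deposited, where its adjusted p rounded to the threshold of 0.05.

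The inhibitor without LPS called no member and 0% of all genes. Among the members 1 had an unadjusted p under 0.05 in limma, and edgeR, DESeq2 and the blocked fit also called 0; 111 of all tested genes had such an unadjusted p. The member was Oas1c, at 5.17 and 5.35 CPM untreated and 4.10 and 4.29 CPM with the inhibitor (-0.27, unadjusted p = 0.00696, adjusted p = 1). For the other members the differences lay between -0.27 for Oas1b and 0.04 for Oasl2. With the block 0.0367% of all genes were called.

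**Figure D3:**
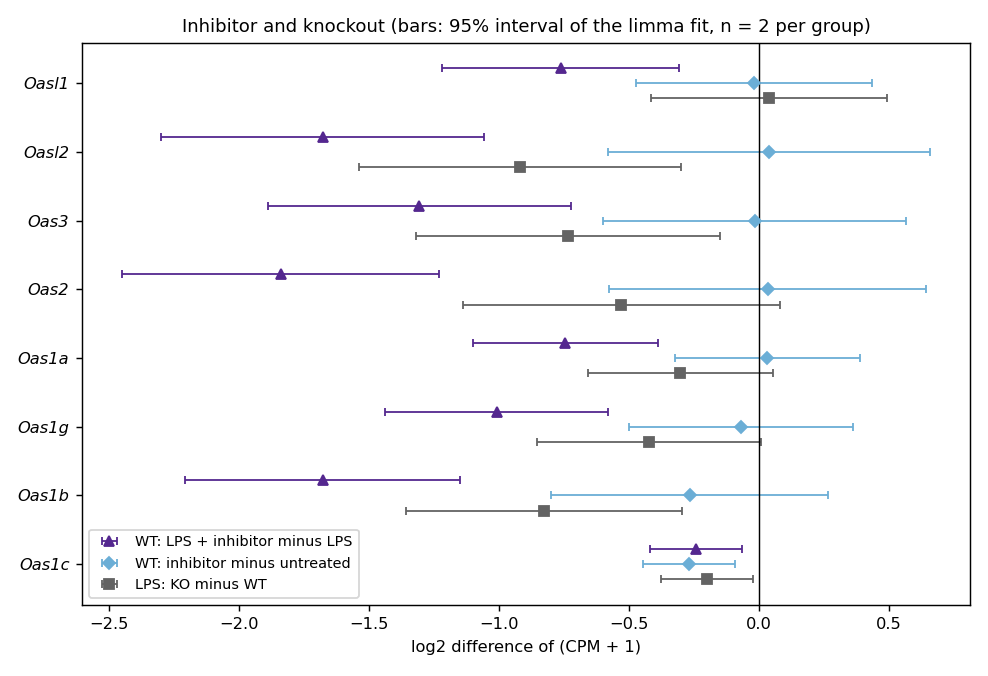
Difference of each member as log2 of (CPM + 1) for the inhibitor after LPS (triangles), the inhibitor alone (diamonds) and KO against WT after LPS (squares); bars are 95% intervals of the limma fit with 2 libraries per group. The triangles lie below 0 for every member and lowest for Oas2 at -1.84, while the diamonds lie between -0.27 and 0.04.

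Oasl1 and Oas1a thus stood at 58.8% and 59.0% of their LPS levels with the inhibitor, but the sizes of their rises differed. Of the LPS rise of 505 CPM of Oasl1 in WT cells, 286 CPM or 56.7% was there with the inhibitor, 59.4% in replicate 1 and 54.3% in replicate 2. Median of ratios scaling gave 56.1%. The rise of Oas1a was 21 CPM and its change with the inhibitor was -2.96 CPM. Oas1g, with a rise of 14.5 CPM, changed by -1.16 CPM. With median of ratios scaling these 2 members kept 10.9% and 8.57% of their rises. Oas1b, with a rise of 5.57 CPM, changed by -1.42 CPM, and Oasl2, with 4.33 CPM, by -2.29 CPM. So Oasl1 was the only member with a called rise in both settings, and the other 4 that rose with LPS alone had no called rise with the inhibitor.

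Whether the LPS response itself differed with the inhibitor was tested as an interaction. Without the block no member was called, while 7 of 8 had an unadjusted p under 0.05; edgeR called 0 and DESeq2 4. Of all 10899 tested genes 743 had such an unadjusted p, and 0.569% were called lower. The difference of the log2 changes was -1.87 for Oas2 (SE 0.39, adjusted p = 0.1), -1.72 for Oasl2 (SE 0.39, adjusted p = 0.156), -1.41 for Oas1b (SE 0.34, adjusted p = 0.185) and -1.29 for Oas3 (SE 0.37, adjusted p = 0.364). It was -0.94 for Oas1g (SE 0.27, adjusted p = 0.37) and -0.78 for Oas1a (SE 0.22, adjusted p = 0.374). For Oasl1 it was -0.74 (SE 0.29, adjusted p = 0.64), close to the value of Oas1a, and for Oas1c 0.03 (95% interval -0.22 to 0.28). With the block these 7 members were called lower, against 1.7% of all genes, with blocked adjusted p from 3.13e-09 for Oas2 to 0.00153 for Oasl1. DESeq2 called Oas2, Oasl2, Oas1b and Oas3, and its share of all genes called was not counted. Both LPS responses rest on separate control libraries, but they share the libraries of WT with LPS, and of WT with both agents, with the comparison of the inhibitor after LPS above.

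In KO cells Oasl1 rose with LPS as well. LPS took it from 27.4 and 39.2 to 508 and 584 CPM, which is 4.01 on the log2 scale (SE 0.20, adjusted p = 1.7e-07). That rise was 101% of the WT rise in CPM. Oas1a rose from 30.3 and 34.8 to 40.5 and 50.7 CPM (0.47, SE 0.16, adjusted p = 0.0246), which was 62.0% of the WT rise. Oas1g rose from 13.1 and 16.9 to 21.3 and 25.2 CPM (0.61, SE 0.19, adjusted p = 0.0179), or 57.0% of it. Oas1c fell from 4.54 and 4.34 to 2.31 and 2.15 CPM (-0.75, SE 0.079, adjusted p = 1.97e-05). Oas1b, at 3.23 and 4.86 CPM untreated and 4.70 and 6.51 CPM with LPS, differed by 0.39 (adjusted p = 0.17, blocked adjusted p = 0.000835), and was called in 3 of 11 alternatives. These were 3 members higher and 1 lower, against 13.9% and 52.7% of all genes. With the block they were 4 and 1, against 18.3% and 62.2%.

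The remaining 3 synthetases were not called in KO cells. Oasl2 stood at 2.86 and 4.39 CPM untreated and 3.20 and 5.03 CPM with LPS, a difference of 0.14 (95% interval -0.48 to 0.76). Oas3 stood at 61.2 and 82.2 CPM against 60.5 and 84.2 CPM (0.01, 95% interval -0.58 to 0.59). Oas2 stood at 47.0 and 64.9 CPM against 43.2 and 60.4 CPM (-0.11, 95% interval -0.72 to 0.50), and this difference was 0.16 with median of ratios scaling. With that scaling 26.8% of all genes were called higher and 33% lower, and the members again counted 3 and 1. Oas1a and Oas1g were lost without replicate 1 of untreated KO (0.136 and 0.13) and without replicate 2 of KO with LPS (0.175 and 0.106). Both were called in 9 of 11 alternatives, with adjusted p from 1.14e-06 to 0.175 for Oas1a and from 8.24e-07 to 0.13 for Oas1g.

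After LPS, 7 members stood lower in both KO libraries than in both WT libraries, against 25.6% of all genes, and Oasl1 overlapped. Oas1b stood at 52.2% of WT (-0.83, SE 0.24, adjusted p = 0.0467). It was the 1 member called lower, where 7.66% of all genes were. This call was lost without any of the 4 libraries in turn (0.0624 to 0.26) and held in 4 of 11 alternatives, from 5.03e-06 to 0.26. Oasl2 stood at 47.9% (-0.92, SE 0.28, adjusted p = 0.0559), Oas3 at 60% (-0.73, SE 0.26, adjusted p = 0.102) and Oas2 at 69.2% (-0.53, SE 0.27, adjusted p = 0.272). Oas1g stood at 73.6% (adjusted p = 0.204), Oas1a at 80.8% (0.281) and Oas1c at 82.3% (0.139). Oasl1 stood at 103% (0.04, 95% interval -0.41 to 0.49). The block called 6 lower, against 16.7% of all genes, leaving out Oas1c and Oasl1. Their blocked adjusted p ran from 3.21e-07 for Oas3 to 0.00043 for Oas1a. These KO differences and the inhibitor differences share the libraries of WT with LPS, and the order of the members in one is not independent of the order in the other.

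Before LPS, no member was called between KO and WT cells without the block. The blocked fit called Oas3 and Oas1b lower and Oasl1 higher in KO cells. In untreated cells Oas3 stood at 61.2 and 82.2 CPM in KO and 89.4 and 112 CPM in WT, with no overlap, or 71.1% (-0.49, SE 0.26, adjusted p = 0.356, blocked adjusted p = 2.25e-05). Oas1b stood at 78.3% (-0.30, adjusted p = 0.62, blocked adjusted p = 0.0229). Oasl1 stood at 128% (0.34, adjusted p = 0.44, blocked adjusted p = 0.00686), with overlapping libraries. Without the block 0 of 8 members were called, against 4.31% of all genes higher and 5.37% lower. Among the members 1 had an unadjusted p under 0.05 in limma (Oas1c, -0.20, unadjusted p = 0.0284, adjusted p = 0.17), as did 2193 of the 10899 tested genes, and edgeR and DESeq2 called 0. With the block 1 was called higher and 2 lower, against 10.9% and 13.7%. Oas3, Oas1b and Oasl1 were each called in 1 of 11 alternatives, which was the block. Oas3 and Oas1c were the 2 members whose KO libraries both lay below both WT libraries. As a part of the 8 members this is near the 26.6% of all genes that did so.

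Macrophage markers and library shares moved with genotype as well. Adgre1 (F4/80), a surface marker of macrophages, was lower in KO cells both untreated (-0.95, SE 0.146, adjusted p = 0.00292) and after LPS (-1.30, SE 0.146, adjusted p = 0.000357). Fcgr1, an Fc receptor, was lower after LPS (-0.725, adjusted p = 0.00928), and Cd68 was lower untreated (-0.29, adjusted p = 0.0499) and after LPS (-0.285, adjusted p = 0.0425). Cd14, a co-receptor for LPS, was higher untreated (0.31, adjusted p = 0.0376) and after LPS (0.30, adjusted p = 0.0326). These were 1 higher and 2 lower of 10 markers untreated, and 1 higher and 3 lower after LPS. Of all tested genes 4.31% were called higher and 5.37% lower untreated, and 7.66% lower after LPS. With the block the markers counted 2 and 3 untreated and 2 and 5 after LPS. All genes then counted 10.9% higher and 13.7% lower untreated, and 16.7% lower after LPS. The share of all genes called higher after LPS was not counted in either fit. Untreated, the 10 markers summed to 13300 to 15200 CPM in WT and 12300 to 14700 CPM in KO cells, which overlapped. After LPS the sums were 13500 to 13700 CPM in WT and 11400 to 12600 CPM in KO cells, which did not overlap. The sum of the stromal, epithelial and endothelial markers was 1.23 to 1.33 CPM in KO against 1.02 to 1.12 CPM in WT cells untreated, and 0.749 to 0.918 against 0.414 to 0.46 CPM after LPS. The KO libraries also had the lower share of alignments in genes and the higher share of alignments that were not unique, as given above. The part of the markers and of these shares in the KO values of the members was not tested.

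The difference between the LPS responses of KO and WT cells was not called for any member without the block. No member had an unadjusted p under 0.05, while 674 of the 10899 tested genes did; edgeR and DESeq2 called 0 members, and 0.284% of all genes were called lower. With the block 3 members had a smaller response in KO cells, against 2.12% of all genes: Oasl2 (-0.73, blocked adjusted p = 0.024), Oas1b (-0.53, blocked adjusted p = 0.026) and Oas2 (-0.37, blocked adjusted p = 0.0193). Their adjusted p without it were 0.983 to 1. The value for Oasl1 was -0.30 (95% interval -0.94 to 0.35, blocked adjusted p = 0.22) and that for Oas3 -0.24 (95% interval -1.07 to 0.58, blocked adjusted p = 0.156).

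After LPS Oasl1 made up most of the family's transcripts per length. It stood at 204 CPM per kb, or 70.6% of the summed level of the 8 members (71.4% and 69.8% in the replicates), before Oas1a at 29.9 CPM per kb. Its share was 75.9% with LPS and the inhibitor and 77.7% in KO cells with LPS. The sum of the other 7 members was 53.4 and 66.1 CPM per kb in untreated WT cells and 75.4 and 94.9 with LPS. With LPS and the inhibitor it was 32.6 and 43.8 CPM per kb, below both untreated WT libraries. In KO cells it was 44.9 and 56.8 CPM per kb untreated and 52.7 and 68.1 with LPS, and these ranges overlapped. Oas1c and Oasl2 held the last ranks in all 6 groups. The sums and shares carry the uncertainty of the Oas1a and Oas1g counts given above.

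**Figure D4:**
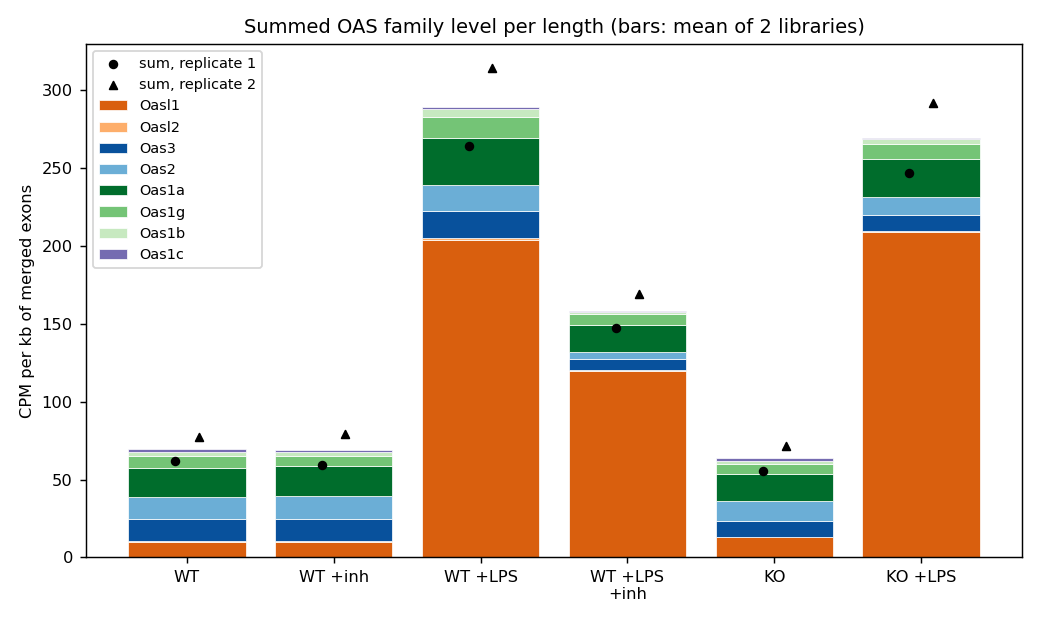
Summed level of the 8 members in CPM per kb of merged exons in the 6 groups; stacked bars are means of 2 libraries, and circles and triangles the sums of replicates 1 and 2. Oasl1 takes 70.6% of the bar in WT with LPS and 14.3% in untreated WT, and the rest of the bar is shortest in WT with LPS and the inhibitor (inh).

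From the 2-5A pathway list, Pde12 and Abce1 passed the minimum level for testing, and their values with LPS in WT cells follow. Pde12, which degrades oligoadenylates, was at 49.9 CPM untreated and 54.1 CPM with LPS on average (0.11, adjusted p = 0.409). Abce1, a protein of ribosome recycling, was at 501 and 549 CPM (0.13, adjusted p = 0.337). Neither was called without the block. With it both were called higher, as were 18% of all genes, with blocked adjusted p of 0.0421 and 0.033. The other Oas1 copies, Oas1d, Oas1e and Oas1f, had at most 2 reads in any library, and Oas1h stayed under 1 CPM.

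Among genes of the interferon signal, Ifnb1 stood high with and without the inhibitor and Irf1 did not. Ifnb1, the gene of interferon beta, stood at 29.7 CPM with LPS and 26.3 CPM with LPS and the inhibitor on average. Untreated WT cells had 0.025 CPM and those with the inhibitor alone 0.063 CPM. Its change with LPS was 4.90 (SE 0.14, adjusted p = 4.61e-09) and the inhibitor after LPS differed by -0.17 (adjusted p = 0.933). The log2(CPM + 1) scale understates a rise from so low a level, so 4.90 is not comparable with the change of Oasl1. KO cells had 12.6 CPM after LPS, lower than WT (-1.19, SE 0.14, adjusted p = 0.000418). Irf1, an interferon regulatory factor, rose with LPS by 1.72 (adjusted p = 2.42e-06) and was lower with the inhibitor by the same size (-1.72, adjusted p = 0.000154) and in KO cells (-1.74, adjusted p = 3.2e-05). Usp18, which restrains the interferon receptor, and Irf7, whose mRNA Oasl1 is known to act on, were lower with the inhibitor after LPS, with values of -2.33 (adjusted p = 0.00158) and -1.78 (adjusted p = 0.01). Of the 13 genes of this list LPS raised 7 and lowered 4, the inhibitor after LPS lowered 7, and 7 were lower in KO cells after LPS. Of all tested genes LPS raised 13.7% and lowered 53.6%, the inhibitor after LPS lowered 1.04%, and 7.66% were lower in KO cells after LPS. The list medians for LPS, the inhibitor after LPS and KO after LPS were 0.33, -0.997 and -0.60, where the medians of all genes were -0.30, 0.02 and 0.0015.

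Among 9 sensors and effectors of double-stranded RNA, Ifih1 rose with and without the inhibitor. This sensor (MDA5) rose by 3.92 with LPS (SE 0.070, adjusted p = 3.79e-10) and by 3.52 with the inhibitor in both arms (adjusted p = 7.63e-10). The inhibitor after LPS differed by -0.34 (adjusted p = 0.0636, blocked adjusted p = 0.000268). Ddx58 (RIG-I) rose by 1.03 with LPS (adjusted p = 0.000736) and was lower with the inhibitor after LPS (-1.89, adjusted p = 0.00064). Zbp1, a sensor of Z-form RNA, rose by 1.61 (adjusted p = 0.000514) and was lower with the inhibitor (-1.55, adjusted p = 0.0247). Mavs, the adaptor of Ifih1 and Ddx58, fell by 1.68 on the log2 scale with LPS (adjusted p = 5.25e-07) and differed by -0.00023 with the inhibitor after LPS. In this list LPS raised 5 and lowered 2 of 9, the inhibitor after LPS lowered 6, and 6 were lower in KO cells after LPS. For all tested genes the shares were 13.7% raised and 53.6% lowered by LPS, 1.04% lowered by the inhibitor and 7.66% lower in KO cells. The list medians were 0.46, -1.07 and -0.67, against -0.30, 0.02 and 0.0015 for all genes.

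The members differed in the genes most like them over the 12 libraries, which share 6 groups and the replicate difference. Among 9572 genes with at least 5 CPM in some group, Oasl1 was most like Il1rap (Pearson r of log2 values 0.997), Stk40 (0.995) and Sash1 (0.994). Oas1a and Oas1g both had Rnf114 first, with r of 0.968 and 0.98, and shared Daxx and Tor3a. Oas1b had Irgm2 (0.974), Xaf1 (0.972) and Irf9 (0.962). Oas2 had Adar (0.981), Trim25 (0.981) and Papd7 (0.933), and Oas3 had H2-T24 (0.961), Papd7 (0.944) and Trafd1 (0.944). Oasl2 had Papd7 (0.971), Zc3hav1 (0.966) and Ddx24 (0.963). Oas1c had Stx16 (0.984), D930016D06Rik (0.983) and Unk (0.981). Between members r was 0.988 for Oas1a with Oas1g, 0.959 for Oas1b with Oasl2, 0.925 for Oas2 with Oas3 and -0.932 for Oasl1 with Oas1c. Oas1b and Oas1c, which start 120 bases apart, had r of -0.06.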

How the data were processed

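Values were deposited as CPM for each gene symbol in each library. The authors made these CPM from read counts with TopHat2 2.1.0, HTSeq and edgeR on mm10 (GRCm38), per the submitters' processing notes; the sources used here give no annotation, strand setting or versions of HTSeq and edgeR. The CPM were scaled over all counted alignments, including 5 summary lines that are not genes. With them removed, CPM were rescaled to gene reads. Reads were recovered: 100% of values were whole within 0.02 reads. A further 4 per-sample columns were not used: their names read as KO cells with the inhibitor, with and without LPS, and match no labelled sample.

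Genes reaching 1 CPM in 2 or more libraries entered limma 3.58.1 (R 4.3.3), with an intensity trend on log2(CPM + 1), in 1 fit of 6 group means over 12 libraries (residual degrees of freedom 6, prior 3.54). On this scale changes of genes near 1 CPM are understated. The test was checked on simulated data for the LPS comparison of WT cells. Those data had the same spread for every gene and no shared replicate difference, so the check does not cover the replicate difference seen here. Alternatives were a pseudocount of 0.25, no filter, median of ratios scaling over genes with at least 5 CPM, CPM as deposited, a replicate block, edgeR 4.0.16 (quasi-likelihood), DESeq2 1.42.0 and each library left out.

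The labels number libraries 1 and 2 in each group. Replicate differences correlated across genes in all 15 pairs of groups (0.468 to 0.737). The blocked fit therefore took the numbers as pairing, and the main fit did not. No label names a shared day or batch. The labels name no separate cultures, so p-values measure the spread between these libraries, which may be technical.

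Members and lists were chosen with earlier results of these data known. Named were all members, Parp14, 2 to 4 genes per list with the largest LPS or inhibitor change in WT cells, and the 3 most similar genes per member (mean of at least 5 CPM in a group). Positions and lengths came from GENCODE M21, promoters from RefSeq (GRCm38.p6; 6 of 8 members matched). Identity between members was taken from coding sequence, since proteins were not used here. A gene of the 2-5A pathway list is not reported here.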

Additional observations from a re-analysis of the deposited data

Results flagged for a closer look

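The LPS response of 7 members differed between WT cells with and without the Jak inhibitor in the blocked limma fit. The differences of log2 changes, LPS with the inhibitor minus LPS without, were -1.87 for Oas2 (blocked adjusted p = 3.13e-09), -1.72 for Oasl2 (1.26e-05) and -1.41 for Oas1b (4.11e-06). They were -1.29 for Oas3 (1.41e-07), -0.944 for Oas1g (1.52e-05), -0.777 for Oas1a (9.98e-06) and -0.741 for Oasl1 (0.00153). Both replicate numbers showed this direction for all 7 members, but the blocked fit uses these same differences, so this is not separate evidence. Without the block the adjusted p ran from 0.1 to 0.64, and none of the 7 was called.

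The LPS response of 3 members differed between KO and WT cells in the blocked fit. The differences of log2 changes, KO minus WT, were -0.731 for Oasl2 (blocked adjusted p = 0.024), -0.534 for Oas1b (0.026) and -0.374 for Oas2 (0.0193). The direction was the same in both replicate numbers, which again is not separate from the blocked fit. Without the block their adjusted p were 0.983, 1 and 1.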

How the results depend on the processing

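Of 72 member results (8 members in 9 comparisons) 20 were called, and no reversal touched a called value. Calls of members differed as follows. For LPS in WT cells the block and DESeq2 called 8 members (6 in the main fit). For LPS in KO cells the block, edgeR and DESeq2 also called Oas1b. For LPS with the inhibitor, median of ratios scaling, edgeR and DESeq2 did not call Oasl2, and the block added Oas1a and Oas1b. With the replicate block, the numbers treated as pairing, 6 members were called for KO against WT after LPS (1 without it), 3 untreated (0), 7 for the inhibitor after LPS (4), 3 for the interaction of genotype and LPS (0) and 7 for that of inhibitor and LPS (0); it ended no call. DESeq2 called 3, 7 and 4 for KO against WT after LPS, the inhibitor after LPS and the inhibitor interaction. The shares of all genes called by edgeR and DESeq2 were not counted. For KO against WT after LPS, edgeR, the pseudocount of 0.25 and no filter called 0 and CPM as deposited 2. CPM as deposited called 1 untreated, and no filter called 2 for the inhibitor after LPS. In the latter comparison CPM as deposited put Oas3 at an adjusted p that rounded to 0.05. The cause was not tested.

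Leaving out 1 library left 4 to 6 calls for LPS in WT, 2 to 4 in KO and 3 to 6 with the inhibitor, 0 to 4 for the inhibitor after LPS and 0 for KO against WT after LPS. The lone library was then assumed to vary like the other groups. The share of the Oasl1 rise kept ran from 54.3 to 59.4%.

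Uncalled log2 values that changed sign were these. For LPS in KO, Oas2 (main -0.11) was 0.163 with median of ratios, 0.187 with edgeR and 0.208 with DESeq2, and Oas3 was -0.00554 as deposited. For LPS with the inhibitor, in the same 3 settings, Oas1a was 0.133, 0.164 and 0.181 and Oas1g 0.155, 0.18 and 0.197. Oasl1 was -0.0202 as deposited for KO against WT after LPS, and 0.0024 (edgeR) and 0.00438 (DESeq2) for the inhibitor alone. The genotype interaction of Oas1c was -0.023 with a pseudocount of 0.25 and -0.0154, -0.0542 and -0.0556 in those 3 settings; its inhibitor interaction was -0.00294, -0.0376 and -0.0456. With 1 library left out, LPS in KO ran from -0.227 to 0.244 for Oas3, -0.119 to 0.404 for Oasl2 and -0.347 to 0.128 for Oas2. KO against WT untreated ran from -0.385 to 0.0728 for Oas2 and -0.431 to 0.0526 for Oasl2, and after LPS from -0.0687 to 0.149 for Oasl1. The inhibitor alone ran from -0.106 to 0.171 for Oas1a, -0.216 to 0.281 for Oas2, -0.203 to 0.28 for Oasl2, -0.296 to 0.156 for Oas1g, -0.236 to 0.202 for Oas3 and -0.284 to 0.243 for Oasl1. LPS with the inhibitor ran from -0.274 to 0.0324 for Oas1a and -0.317 to 0.136 for Oas1g, and the genotype interaction of Oas1c from -0.0322 to 0.0374. With 2 libraries a group, differences under the intervals given could not be told from 0.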

Other observations

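Oas1h, a further Oas1 copy under the testing minimum, had 21 and 23 reads in WT cells with LPS and 8 and 9 reads with LPS and the inhibitor. In KO cells with LPS it had 7 and 22 reads, so the KO libraries overlapped those of WT.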
